A study of Mus musculus with 1790 samples.

Results

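Nkx2-1, Lhx6, Lhx8, Sox6, Satb1 and Maf are 6 transcription factor genes that are used to recognise interneurons of the medial ganglionic eminence (MGE). They were looked up by symbol among 49915 gene names found over 7 count tables, and each was followed wherever a table had its row. Both E14.5 droplet tables, both E14.5 C1 tables and the patch-seq table held all 6, the P15 table held 5 (no Lhx8) and the P30 table held 3 (Lhx6, Satb1 and Maf). The genes were chosen by name, not by a measured value, although earlier results of these data were known.

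Cortical interneurons arise in the ventral forebrain, from the MGE, the caudal ganglionic eminence (CGE) and the preoptic area (POA). The homeodomain factor Nkx2-1 specifies progenitors of the MGE and of the POA, and is turned off in most cortical interneurons as they leave. It acts upstream of the LIM-homeodomain genes Lhx6, which cortical MGE interneurons keep, and Lhx8, which cholinergic neurons keep. Sox6, an SRY-box factor, Satb1, a chromatin organiser, and Maf, a leucine zipper factor, act later, during migration and maturation of MGE interneurons. Neurogliaform cells (NGCs) are dense-axoned inhibitory neurons of the upper cortical layers, and those followed here were born in the POA.

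The study sampled wild-type POA and CGE at E14.5 in droplets (2106 and 4115 cells), for which its methods name both the CD1 and the C57BL/6 strain. It also sampled E14.5 POA cells on C1 microfluidic chips, as 352 cells of wild-type embryos sorted as FlashTag+ shortly after injection of this dye, which marks progenitors at the ventricular wall, and as 418 tdTOM+/GFP+ cells. Per the methods the dye was injected in CD1 embryos, whereas the transgenic mice were kept on a C57BL/6 background, so that comparisons of the FlashTag+ and tdTOM+/GFP+ cells cross strains. From the upper layers of somatosensory cortex, tdTOM+ and tdTOM- cells were captured on C1 chips at P15 (196 and 194 cells) and P30 (301 and 280 cells), and 47 tdTOM+/GFP+ cells of the somatosensory cortex, whose labels name no layer, were patched between P14 and P25 and sequenced. All sorted and patched cells other than FlashTag+ came from mice that carried R26R-tdTOM fl/fl beside the transgenes Hmx3-Cre and Htr3a-GFP, and the postnatal sorts were all GFP+. In these mice tdTOM marks cells in which a bacterial artificial chromosome (BAC) transgene with the Hmx3 promoter drove Cre, GFP reports the Htr3a promoter of another BAC, and the methods state that BAC transgenes could alter endogenous expression. Brains were pooled at each postnatal age, no treatment was given, and no label tied a cell to an animal. Each collection was therefore 1 sample, no test was run, and every difference below is a description of these collections.

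Levels are given as CPM, the count of a gene per 1000000 counts summed over a group, with exact Poisson 95% intervals that cover counting error only and are too narrow for differences between animals. Log2 folds were taken after adding 10 CPM. A gene was called past 2-fold when it reached 10 CPM in the higher group and an absolute log2 fold of 1, and the share of all genes with at least 10 CPM that were past 2-fold is given as the background of each comparison. Shares of cells with a count were taken after every cell was thinned at random to 1 depth. Median depth was 7574 counts per POA and 5710 per CGE droplet cell, and between 204616 and 356990 counts per C1 cell in each collection. The droplet libraries had 12 cell barcodes in common, and without them the calls on the members were as many as with them.

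On GRCm38 (GENCODE vM21), all 6 genes lie on the minus strand. Nkx2-1 (ENSMUSG00000001496) spans chr12:56531958-56536908, Lhx6 (ENSMUSG00000026890) spans chr2:36081953-36105408 and Lhx8 (ENSMUSG00000096225) spans chr3:154306294-154330659. Sox6 (ENSMUSG00000051910) spans chr7:115470872-116038796, Satb1 (ENSMUSG00000023927) spans chr17:51736187-51833290 and Maf (ENSMUSG00000055435) spans chr8:115682942-115707794. Nkx2-1, Sox6 and Maf overlap antisense genes (Gm26973, Gm45025 and Sox6os, and Gm15655, in this order), and counting of the C1 cells used the strand.

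The upstream sequences of Nkx2-1, Lhx8 and Lhx6 are shown because Nkx2-1 and Lhx8 were both higher in the POA than in the CGE below, whereas Lhx6 was not. Each is the 250 bases before the RefSeq start on GRCm38.p6, on the strand of the gene, and for Lhx6 before 1 of its 3 listed starts. Capitals mark AAGTG or its reverse complement CACTT, the core letters that Nkx2 homeodomains are known to prefer.
Nkx2-1, chr12:56536909-56537158, minus strand: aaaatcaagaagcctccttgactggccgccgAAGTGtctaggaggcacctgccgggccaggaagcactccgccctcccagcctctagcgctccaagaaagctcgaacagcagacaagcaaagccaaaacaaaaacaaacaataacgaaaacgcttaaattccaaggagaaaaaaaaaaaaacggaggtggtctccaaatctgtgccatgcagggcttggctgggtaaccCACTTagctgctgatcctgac
Lhx8, chr3:154330561-154330810, minus strand: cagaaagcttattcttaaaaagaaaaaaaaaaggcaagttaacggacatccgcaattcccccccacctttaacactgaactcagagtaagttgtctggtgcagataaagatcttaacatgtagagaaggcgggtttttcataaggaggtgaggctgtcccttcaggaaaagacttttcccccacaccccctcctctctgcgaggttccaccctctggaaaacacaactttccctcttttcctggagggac
Lhx6, chr2:36105409-36105658, minus strand: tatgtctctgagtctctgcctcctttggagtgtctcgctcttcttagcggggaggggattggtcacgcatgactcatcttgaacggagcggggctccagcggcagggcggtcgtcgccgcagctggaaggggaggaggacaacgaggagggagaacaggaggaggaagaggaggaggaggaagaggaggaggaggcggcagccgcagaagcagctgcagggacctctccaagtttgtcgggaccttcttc
The Nkx2-1 window held these 5 letters at 2 positions and the windows shown of Lhx8 and Lhx6 at 0 positions. Of the other 2 starts of Lhx6, the window chr2:36104061-36104310 held them at 1 position. Of 32841 windows of the same length before RefSeq starts, 40.7% held them on either strand. Searched on both strands, the longer form CAAGTG, which itself holds the 5 letters, was in 11.6% of all windows and in none of the 3 shown. The homeodomain motif TAATTA, its own reverse complement, was in 4.84% of all windows and likewise in none of the 3. The 5-letter core was searched after the longer forms had given no match.

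The first comparison asked whether regulators of the MGE lineage separated the POA from the CGE at E14.5. Droplet cells were split by whether counts of progenitor genes (Mki67, Top2a, Nes, Fabp7, Sox9, Hes1 and Hes5) or of neuronal genes (Dlx5, Dlx6, Gad1, Gad2, Stmn2, Dcx and Tubb3) were more numerous, which gave 534 progenitor-like and 1550 post-mitotic-like POA cells, and 1171 and 2318 CGE cells. Nkx2-1 and Lhx8 were higher in the POA in both classes. Sox6 and Maf were higher in the CGE among post-mitotic-like cells, where Lhx6 and Satb1 leaned the same way without passing 2-fold. Markers of each dissection were looked at first. Zic1, a factor of the POA and septum, was at 206 CPM in post-mitotic-like POA cells and 9.00 CPM in those of the CGE. Of 11 genes of a CGE list with at least 10 CPM in post-mitotic-like cells, 3 (Nr2f1, Sp8 and Htr3a) were past 2-fold in the CGE and the other 8, Nr2f2 and Prox1 among them, were not. Of 8 such genes in progenitor-like cells, 0 were past 2-fold.

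In progenitor-like cells Nkx2-1 was at 358 CPM (341.5 to 375.5) in the POA and 127 CPM (120.4 to 134.7) in the CGE. After thinning to 3200 counts, 54.7% of POA and 19.6% of CGE progenitor-like cells held an Nkx2-1 count. The log2 fold was 1.42, and both intervals were apart. Lhx8 was at 19.5 CPM (15.7 to 23.8) in POA and 2.57 CPM (1.66 to 3.79) in CGE progenitor-like cells, a log2 fold of 1.23, with counts in 4.87% and 0.769% of thinned cells. Nkx2-1 was thus found in most progenitor-like cells of the POA, and Lhx8 in few cells of either dissection. The other 4 members were within 2-fold. Lhx6 was at 25.9 CPM in the POA and 21.6 CPM in the CGE, with overlapping intervals, and Satb1 was at 44.4 and 47.9 CPM. Sox6 was at 52.7 CPM in the POA and 64.8 CPM in the CGE, and Maf at 9.95 and 15.3 CPM. In all, 2 of 6 members were past 2-fold, both higher in the POA, beside 2.25% of 9102 genes in either direction, 1.8% higher in the POA and 0.45% higher in the CGE. The median log2 fold was 0.05 over the 6 members and 0.02 over all genes.

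In post-mitotic-like cells Nkx2-1 was at 391 CPM (381.9 to 400.9) in the POA and 165 CPM (158.6 to 171.3) in the CGE. A count was found in 60.1% (57.6 to 62.6%) of thinned POA cells and 23.6% (21.8 to 25.3%) of thinned CGE cells, and the log2 fold was 1.20. Lhx8 was at 67.6 CPM (63.8 to 71.7) in the POA and 12.0 CPM (10.3 to 13.8) in the CGE. Its log2 fold was 1.82, with counts in 12.6% and 2.93% of cells. The early factor Nkx2-1 and the cholinergic factor Lhx8 therefore kept the same order between dissections in both classes. The cholinergic markers Chat, Slc5a7, Slc18a3 and Isl1 summed to 161 CPM in these POA cells and 64.2 CPM in the CGE cells, where Chat had no row. Isl1, which is not restricted to cholinergic neurons, gave 159 CPM of the first sum and 63.6 CPM of the second, so that the sums say little of the other genes.

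The later factors ran the other way in post-mitotic-like cells. Maf was at 14.1 CPM (12.3 to 16.0) in the POA and 83.3 CPM (78.8 to 87.9) in the CGE, a log2 fold of -1.95, with counts in 3.87% and 19.3% of thinned cells. Sox6 was at 51.8 CPM (48.4 to 55.3) and 129 CPM (123.4 to 134.6), a log2 fold of -1.17, with counts in 12.8% and 29.2% of cells. The POA value of Maf was near the 10 CPM that were added. Lhx6 was at 65.0 CPM (61.2 to 68.9) in the POA and 109 CPM (104.0 to 114.4) in the CGE, a log2 fold of -0.67, and 15.9% and 25.2% of thinned cells held it. Satb1 was at 52.0 CPM in the POA and 79.7 CPM in the CGE, a log2 fold of -0.53. In all, 4 of 6 members were past 2-fold, beside 3.41% of 8932 genes in either direction, 2.15% higher in the POA and 1.27% higher in the CGE. The median log2 fold was -0.60 over the members and -0.00356 over all genes. When 100 CPM were added in place of 10, 1 member stayed past 2-fold in progenitor-like cells and 0 in post-mitotic-like cells.

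**Figure D1:**
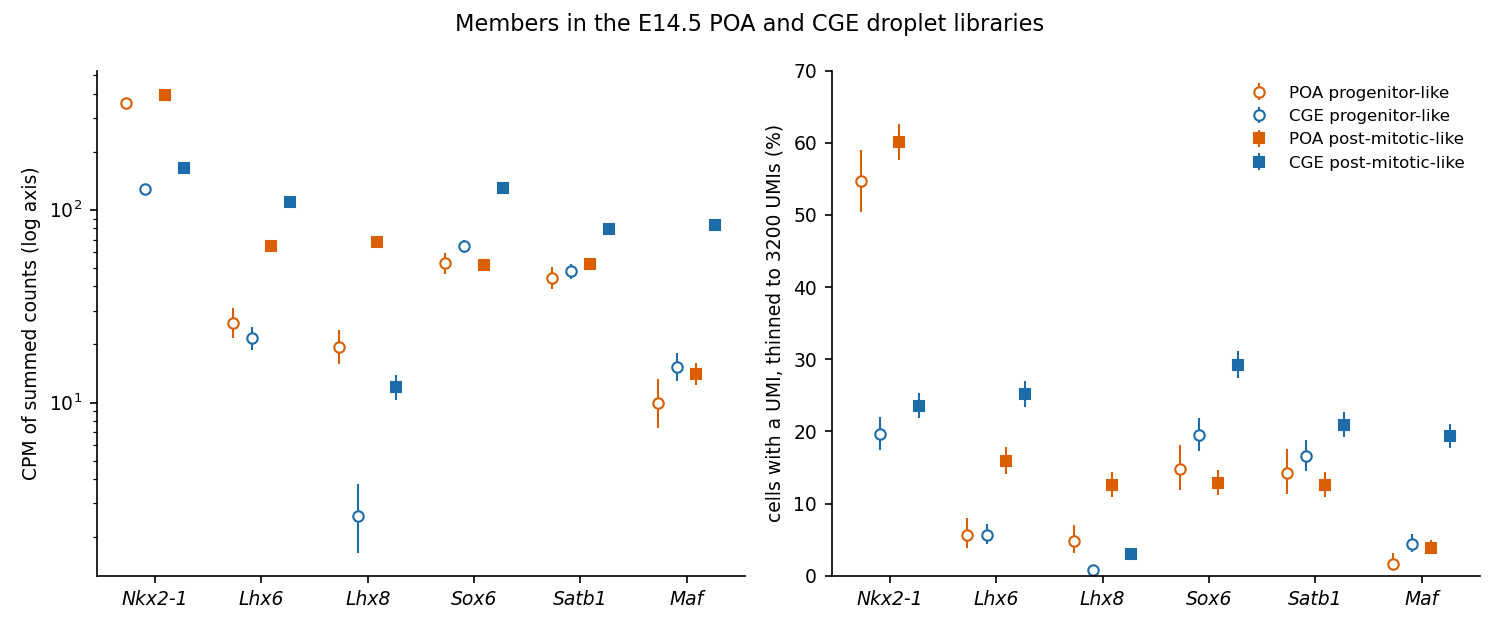
Each member in the E14.5 droplet libraries, POA in orange and CGE in blue, progenitor-like cells as open circles and post-mitotic-like cells as filled squares. The left panel plots CPM of summed counts on a log axis with Poisson 95% intervals and the right panel the percentage of cells with a count after thinning to 3200 counts with Clopper-Pearson 95% intervals. Nkx2-1 and Lhx8 stand higher in POA cells, and filled blue squares stand highest for Lhx6, Sox6, Satb1 and Maf.

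Markers of other cells moved with these values. Of the MGE companion genes fixed as a list, 16 reached 10 CPM in post-mitotic-like cells, and 8 of these were past 2-fold in the CGE, Sst, Npy and Zeb2 among them, and 2 in the POA (Zic1 and Isl1). Their median log2 fold was -1.01. Sst, the peptide gene of a main class of MGE interneurons, was at 384 CPM in post-mitotic-like CGE cells and 52.6 CPM in POA cells. The list Sst, Pvalb, Tac1 and Chodl summed to 415 CPM in the CGE cells and 79.3 CPM in the POA cells, and the hypothalamic list Sim1, Otp, Foxb1 and Rax to 5.07 and 209 CPM. The red-blood list (4 haemoglobin genes, all present) summed to 489 and 1625 CPM in this order. The part of these in the difference between dissections was not tested, and fewer cells with a gene cannot be told apart from less RNA per cell in the summed values.

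The next question was where along maturation each member was highest within a dissection. Cells of each library were put in 5 bins of equal number by their neuronal share, the counts of the post-mitotic list over those of both lists, which used none of the 6 genes. In the POA, Nkx2-1 stayed between 346 CPM (326.9 to 365.5) in bin 1 and 405 CPM (385.3 to 424.8) in bin 5. In the CGE it went from 68.8 CPM in bin 1 to 260.01 CPM in bin 2 and 229 CPM in bin 3, and then to 111 and 87.3 CPM. Nkx2-1 was thus held through the POA series and highest at middle shares in the CGE.

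Lhx6 was lowest in bin 1 in both libraries. It went from 16.9 CPM (12.9 to 21.7) to 73.1 CPM (65.0 to 82.0) in the POA and from 11.7 CPM (9.07 to 14.8) to 112 CPM (102.9 to 122.5) in the CGE. Lhx8 went from 15.2 CPM in bin 1 to 88.4 CPM in bin 4 and 72.1 CPM in bin 5 of the POA, and reached at most 14.1 CPM in the CGE. Of the 6 members, these 2 LIM-homeodomain genes were past 2-fold between the first and last POA bins, both higher in the last, beside 13.4% of 9506 genes in either direction, 4.77% higher in the last bin and 8.64% higher in the first. Sox6, Satb1 and Maf differed less along the POA series, where Sox6 lay between 42.3 and 59.9 CPM, Satb1 between 39.6 and 58.5 CPM and Maf between 7.78 and 16.2 CPM. In the CGE the summed levels of the same 3 genes were higher in each later bin, although intervals of some neighbouring bins overlapped. Sox6 went from 65.2 to 148 CPM, Satb1 from 43.6 to 87.7 CPM and Maf from 11.8 to 111 CPM. With 3 bins in place of 5, 1 member was past 2-fold along the POA series.

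**Figure D2:**
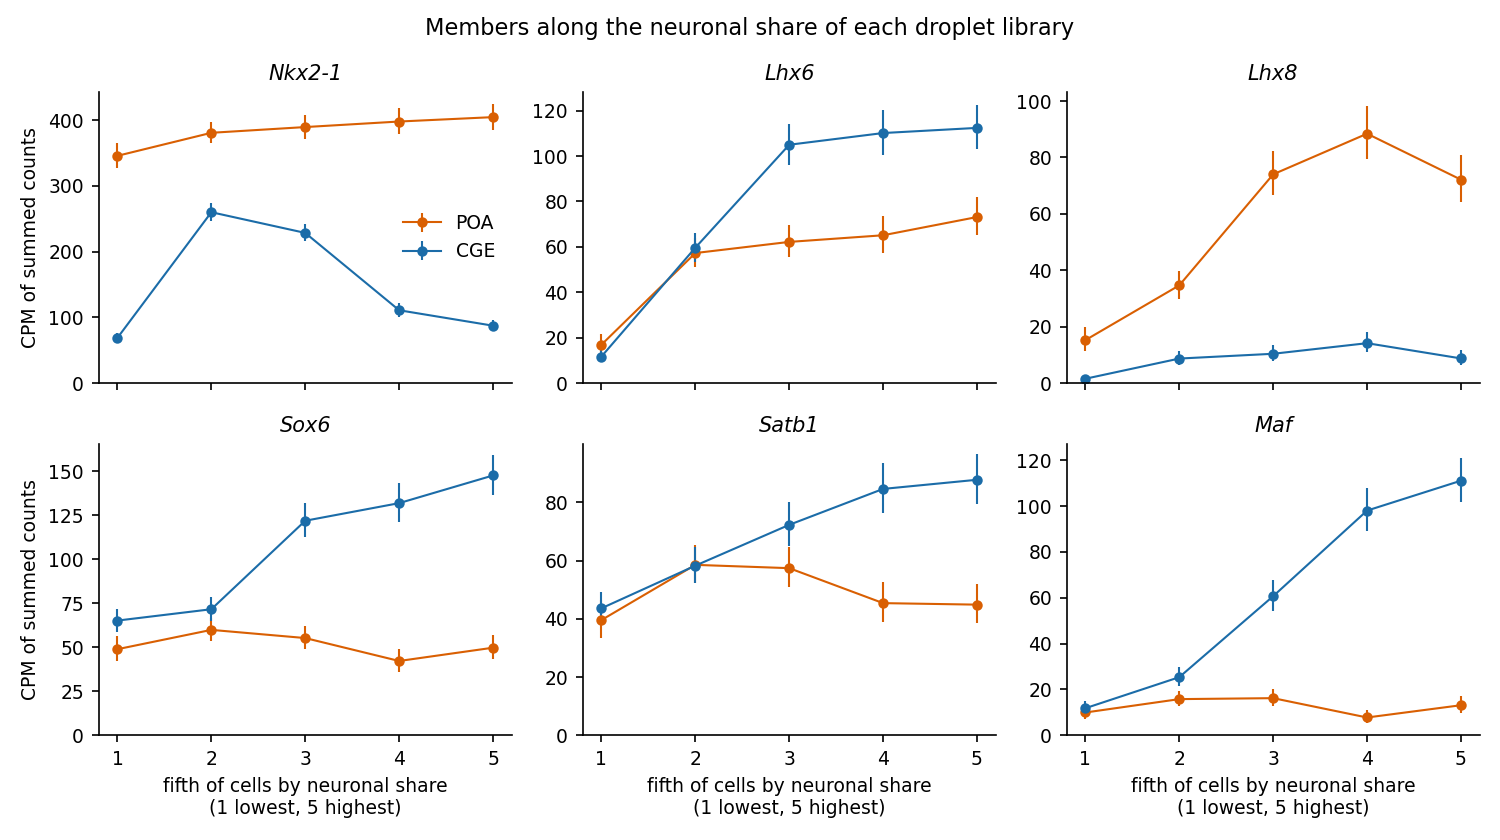
Each member along 5 bins of droplet cells from lowest to highest neuronal share on the x axis, with CPM of summed counts and Poisson 95% intervals on the y axis, POA in orange and CGE in blue. Nkx2-1 is level in the POA, from 346 to 405 CPM, and peaks at 260.01 CPM in bin 2 of the CGE, and Maf climbs to 111 CPM only in the CGE line.

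Cells that held pairs of members were counted after thinning. Of 1550 post-mitotic-like POA cells, 165 held both Nkx2-1 and Lhx6, 744 held Nkx2-1 without Lhx6 and 80 held Lhx6 without Nkx2-1. Of 2318 CGE cells, 232 held both, 320 Nkx2-1 alone and 373 Lhx6 alone. Lhx6 was thus found with Nkx2-1 in 67.3% of the POA cells that held it and in 38.3% of those of the CGE. Among cells without Lhx6, Nkx2-1 was in 57.01% of the POA and 18.7% of the CGE cells. Lhx6 and Lhx8 were found together in 59 POA cells (3.81%) and 24 CGE cells (1.04%). Without thinning, 415 POA cells held both Nkx2-1 and Lhx6, since deeper cells show more pairs. At equal depth, 3 or more members were found in 11.2% (9.64 to 12.8%) of post-mitotic-like POA cells and 15.2% (13.7 to 16.7%) of those of the CGE.

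POA cells with a count of Hmx2 or Hmx3, the homeobox genes tied to the NGC lineage, were set beside the rest of the post-mitotic-like POA cells. Among 205 such cells, 9.27% (5.67 to 14.1%) held Lhx6, against 18.1% (16.1 to 20.3%) of the other 1345. Nkx2-1 was found in 52.7% (45.6 to 59.7%) and 59.5% (56.8 to 62.1%), and Sox6 in 6.83% (3.78 to 11.2%) and 15.7% (13.8 to 17.7%). For Satb1 the shares were 10.7% (6.85 to 15.8%) and 12.5% (10.8 to 14.4%), which overlap. The intervals of the share were apart for 2 of 6 members, Lhx6 and Sox6, both lower in cells with Hmx2 or Hmx3, beside 3.32% of 8863 genes in either direction and 1.31% in this one. By summed level Lhx8 was at 36.8 CPM (29.4 to 45.5) and 72.5 CPM (68.2 to 77.0), and Nkx2-1 at 351 CPM (326.8 to 375.5) and 398 CPM (387.6 to 408.2), with intervals apart. The share of all genes with intervals of the level apart was not taken, so these levels have no background and are a description only.

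The genes most like each member were read off correlations of log2(CPM + 100) over the 1550 thinned post-mitotic-like POA cells, which share 1 library and 1 depth and are not replicates. Nkx2-1 was most like Mbip (r = 0.21), its genomic neighbour, Slc25a5 (0.20) and Lhx8 (0.19). Lhx6 was most like Gm17750 (0.28), Sox6 (0.27) and Dlx6os1 (0.27), and Lhx8 like Slc10a4 (0.41), Zic1 (0.36) and Zic4 (0.26). Slc10a4 is a vesicular transporter of cholinergic neurons. Sox6 was most like Lhx6, Dlx6os1 (0.26) and Tcf4 (0.26), Satb1 like Tcf4 (0.13), Nfib (0.12) and Lrrc4b (0.11), and Maf was in too few cells (3.87%) to be ranked. Apart from Lhx8, these correlations in sparse counts were weak.

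In the E14.5 POA, the sorted tdTOM+/GFP+ cells were then compared with FlashTag+ cells. Of the 5 members that reached 10 CPM, Lhx6 was the 1 past 2-fold, higher in tdTOM+/GFP+ cells. Beside it, 22.8% of 10438 genes were past 2-fold in either direction, 7.53% in this one and 15.3% in the other, so 1 of 5 members lay near the background. Lhx6 was at 53.5 CPM (52.4 to 54.7) in tdTOM+/GFP+ cells and 10.1 CPM (9.52 to 10.7) in FlashTag+ cells, a log2 fold of 1.66. It was found in 22.7% (18.7 to 27.1%) of thinned tdTOM+/GFP+ cells and 2.43% (0.983 to 4.94%) of FlashTag+ cells. The 2 collections differed in class, since 399 of 405 deep enough tdTOM+/GFP+ cells were post-mitotic-like and 245 of 288 FlashTag+ cells progenitor-like.

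Within post-mitotic-like cells, an alternative added after the data were seen, the Lhx6 difference turned to a log2 fold of -0.26. Lhx6 was then at 52.0 CPM in 399 tdTOM+/GFP+ cells and 64.4 CPM in 43 FlashTag+ cells, of which 6 held a count and 1 held 37.1% of the counts. Without the cell with the largest count in each group the log2 fold was 0.15, so the sign in these cells rested on single cells. In the 245 progenitor-like FlashTag+ cells, Lhx6 had 3 counts in 3 cells (0.0356 CPM) and Lhx8 had 15 counts in 3 cells (0.178 CPM). Lhx6 and Lhx8 counts of the FlashTag+ collection were therefore nearly all in cells not called progenitor-like. Some of the cells not so called were too shallow to be given a class. In the whole collections the class could not be told apart from the sort. In post-mitotic-like cells 4 members were past 2-fold: Nkx2-1 (log2 fold -1.18), Lhx8 (-1.52) and Satb1 (-1.33) were lower in tdTOM+/GFP+ cells and Sox6 (1.17) higher, beside 22.4% of 9905 genes in either direction, 10.9% lower and 11.5% higher in tdTOM+/GFP+ cells. One FlashTag+ cell held 61.4% of the Lhx8 counts, and without the largest cell in each group the Lhx8 log2 fold was -0.62, short of 2-fold, which left 3 members past it. Only 6 tdTOM+/GFP+ cells were progenitor-like. There 5 members were past 2-fold, 4 of them higher in tdTOM+/GFP+ cells, beside 50.4% of 10193 genes in either direction, 13.8% higher and 36.5% lower.

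The other members were within 2-fold over the whole collections. Nkx2-1 was at 51.0 CPM (49.9 to 52.2) in tdTOM+/GFP+ cells and 92.4 CPM (90.6 to 94.3) in FlashTag+ cells, with counts in 58.5% and 50.0% of thinned cells, so that the summed level and the share pointed in opposite directions. Lhx8 was at 10.1 and 6.71 CPM, in 6.91% and 1.74% of cells. The intervals of the Nkx2-1 shares, 53.5 to 63.4% and 44.1 to 55.9%, overlapped. Sox6 was at 115 and 159 CPM, and Satb1 at 60.3 and 114 CPM, in this order. Maf was at 3.26 CPM in tdTOM+/GFP+ cells, in 5.50% of all 418, and at 3.99 CPM in FlashTag+ cells. Maf was the member found in the fewest tdTOM+/GFP+ cells, 23 of 418, next to Lhx8 in 34.

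Single cells varied widely. The Lhx6 level in tdTOM+/GFP+ cells ran from 0 CPM through a median of 0 CPM to 3030 CPM, and that of Nkx2-1 from 0 through 7.35 to 626 CPM. Of 405 thinned tdTOM+/GFP+ cells, 51 held both Nkx2-1 and Lhx6, 188 Nkx2-1 alone and 28 Lhx6 alone. Sox6 was found in 62.0% of the cells with Lhx6 and 36.2% of those without. Over all 418 cells, which share a collection and differ in depth, Bcl11b (r = 0.42) and Sox6 (0.40) were among the genes most like Lhx6. Lhx6 and Bcl11b (0.35) were among those most like Sox6. Nkx2-1 was most like Nfib (0.28), Zfp608 (0.25) and C130071C03Rik (0.24), and Satb1 like Ypel5 (0.22), Nfib (0.21) and Tcf4 (0.20).

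**Figure D3:**
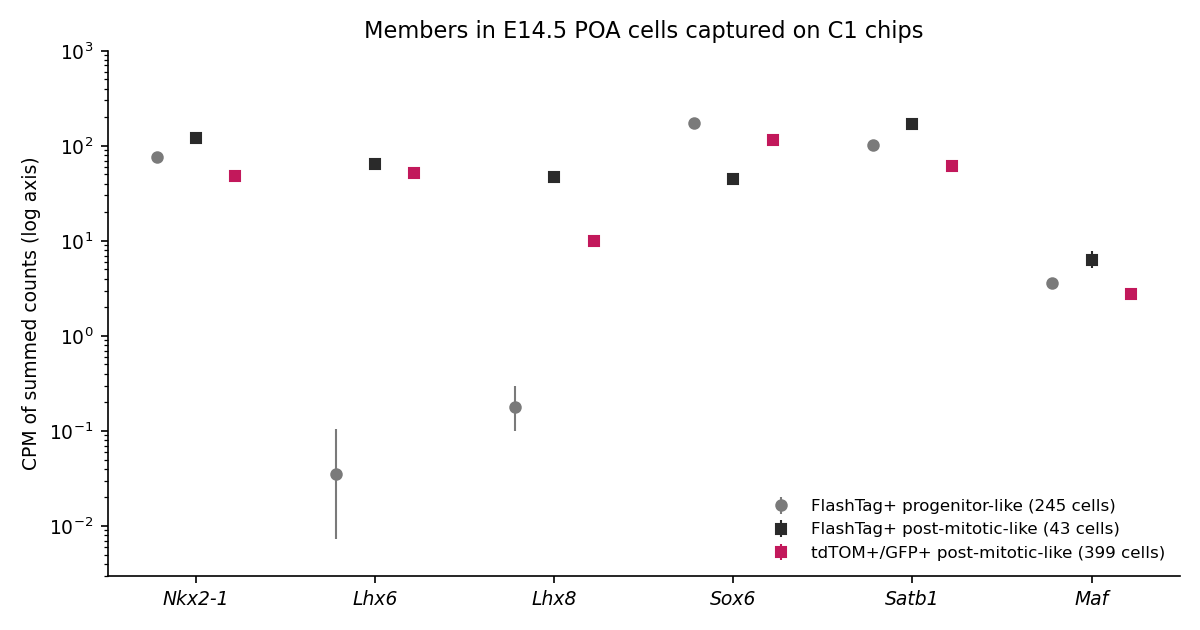
CPM of each member on a log axis with Poisson 95% intervals in E14.5 POA cells captured on C1 chips, split by collection and class: 245 progenitor-like and 43 post-mitotic-like FlashTag+ cells and 399 post-mitotic-like tdTOM+/GFP+ cells. Lhx6 and Lhx8 lie under 1 CPM in progenitor-like FlashTag+ cells and above 10 CPM in both post-mitotic-like groups.

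In the cortex, the question was which of these regulators tdTOM+ NGCs still held compared with other Htr3a-GFP+ interneurons. NGCs were tdTOM+ cells labelled Lamp5 Plch2 Dock5 (Dock5+NGCs) or Lamp5 Lsp1 (Lsp1+NGCs), and non-NGCs were tdTOM- cells of every other named subtype. The subtype labels were transferred from an adult reference on whole transcriptomes, so that members may have taken part in them. The paper also describes a further, rare NGC subtype that likely matches the label Lamp5 Lhx6. Cells with that label or the label inconclusive were not among the NGCs here. In the sorted NGCs so defined, Lhx6 was not detected at either age and Nkx2-1 was not detected at P15, the only age with its row. This absence holds for the Dock5 and Lsp1 labels only, and the labels may have depended on Lhx6. Satb1 was lower in NGCs than in non-NGCs at both ages, and Maf was found in nearly every cell of both groups.

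At P15, Nkx2-1 and Lhx6 had 0 counts in 69 NGCs, which at this depth allows up to 0.148 CPM. In 89 non-NGCs, Nkx2-1 had 0 counts and Lhx6 had 9 counts in 2 cells. Sox6 was at 1.93 CPM in NGCs, all from 1 cell, and 1.28 CPM in non-NGCs. At P30, where Nkx2-1 and Sox6 had no row, Lhx6 had 0 counts in 111 NGCs and in 96 non-NGCs, which allows up to 0.103 and 0.121 CPM.

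Satb1 was at 15.3 CPM (13.6 to 17.1) in NGCs and 102 CPM (98.1 to 105.8) in non-NGCs at P15, a log2 fold of -2.15. It was found in 17.2% (8.90 to 28.7%) of thinned NGCs and 52.6% (40.9 to 64.0%) of non-NGCs. Single NGCs ran from 0 through a median of 0 to 564 CPM and single non-NGCs from 0 through 7.65 to 869 CPM, so the groups overlapped cell by cell. At P30, Satb1 was at 11.7 CPM (10.4 to 13.0) in NGCs and 44.0 CPM (41.4 to 46.7) in non-NGCs, a log2 fold of -1.32, with counts in 12.9% (7.04 to 21.0%) and 29.4% (20.02 to 40.3%) of thinned cells. The direction was the same at both ages, and 1 NGC held 36.6% of the Satb1 counts at P15 and 28.1% at P30. At P15, Satb1 was past 2-fold, 1 of 2 members that reached 10 CPM among 5 with a row. Beside it, 13.8% of 9081 genes were past 2-fold in either direction, 7.83% higher in non-NGCs and 5.92% higher in NGCs. At P30, Satb1 was likewise 1 of 2 such members, among 3 with a row. Beside it, 14.3% of 10323 genes were past 2-fold, 7.43% higher in non-NGCs and 6.92% higher in NGCs. At P30 the log2 fold was -0.96 with the mean CPM of single cells and -0.84 between the whole sorts, both short of 2-fold.

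At P15, Maf was at 326 CPM (318.4 to 334.2) in NGCs and 343 CPM (336.3 to 350.5) in non-NGCs, and 95.3% and 94.9% of thinned cells held it, with a log2 fold of -0.07. At P30 the Maf level was 223 CPM (217.7 to 228.6) and 348 CPM (340.4 to 355.1), a log2 fold of -0.62, in 96.0% and 95.3% of thinned cells. Maf was thus found in almost all cortical cells, in contrast to its share of 5.50% in the tdTOM+/GFP+ collection at E14.5. These tables were made and filtered separately, and the gap between ages cannot be told apart from that between collections.

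By subtype label, and among groups of at least 10 cells, Satb1 was highest in tdTOM- Vip cells at P15 and in tdTOM- Sncg cells at P30. At P15 it was at 127 CPM (121.4 to 132.0) in 63 tdTOM- Vip cells, 66.6 CPM (61.6 to 71.9) in 24 tdTOM+ Vip cells and 71.3 CPM (62.9 to 80.4) in 10 tdTOM- Sncg cells. In tdTOM+ cells of the same age Dock5+NGCs had 21.3 CPM (18.6 to 24.3) of it and Lsp1+NGCs 8.67 CPM (6.92 to 10.7). The Vip value in tdTOM+ cells thus stood above both NGC values of the same sort. At P30, Satb1 was at 77.5 CPM (71.5 to 83.8) in 25 tdTOM- Sncg cells, 29.3 CPM (26.1 to 32.8) in 47 tdTOM- Vip cells and 19.1 CPM (15.0 to 24.1) in 15 tdTOM+ Vip cells. It was at 27.1 CPM (23.0 to 31.6) in other tdTOM- Lamp5 cells and 21.4 CPM (17.6 to 25.8) in other tdTOM+ Lamp5 cells. Neighbours in this order from 29.3 down to 19.1 CPM had overlapping intervals.

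Maf, by contrast, was in 93.3 to 100% of cells, without thinning, of every subtype and sort with at least 10 cells and a named subtype. Thinned for the comparison with Lsp1+NGCs, 89.4% of P30 Dock5+NGCs held Maf. Its level was at 230 CPM (220.7 to 239.0) in P15 Dock5+NGCs, and between 273 and 432 CPM in the other P15 groups of at least 10 cells with a named subtype. At P30 the lowest such level was again in Dock5+NGCs, at 177 CPM (171.4 to 183.3), and the highest in other tdTOM- Lamp5 cells, at 385 CPM (369.5 to 401.3). Over the 581 P30 cells of both sorts, the genes most like Maf were Plekhb2 (r = 0.21), Setd7 (0.18) and Clpb (0.18), and those most like Satb1 were Brinp3 (0.23), Twsg1 (0.21) and Marcks (0.21), all weak.

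**Figure D4:**
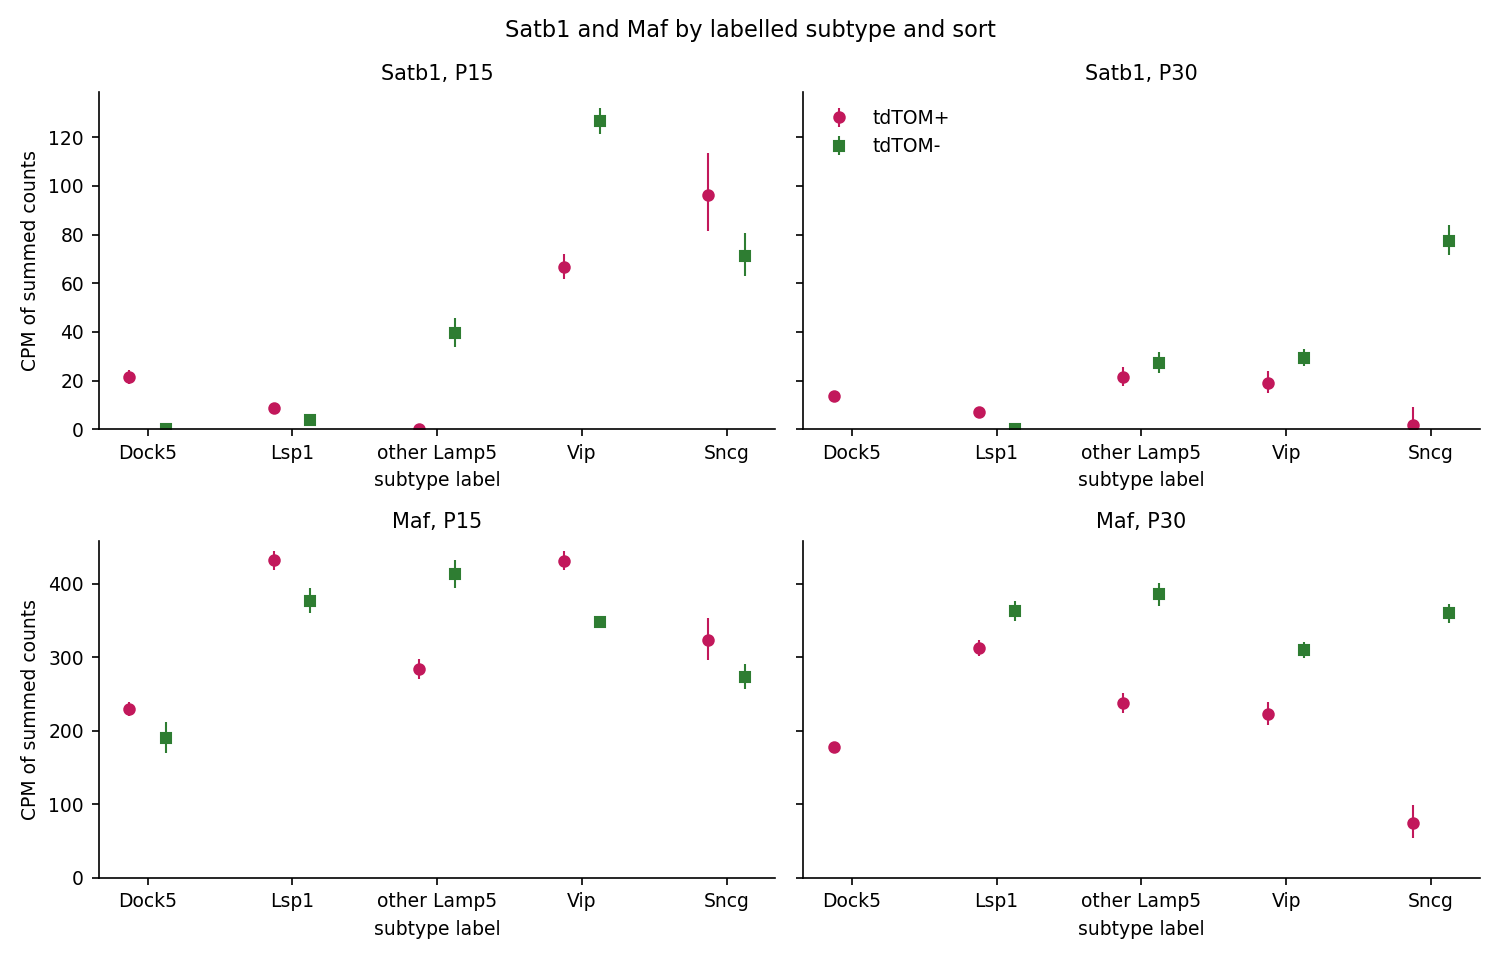
Satb1 (top) and Maf (bottom) at P15 (left) and P30 (right) by subtype label on the x axis, tdTOM+ cells as pink circles and tdTOM- cells as green squares, with CPM of summed counts and Poisson 95% intervals on the y axis. Satb1 is low in Dock5 and Lsp1 cells, between 0 and 21.3 CPM, and reaches 127 CPM in P15 tdTOM- Vip cells, whereas Maf lies at 177 CPM or higher in every group drawn but tdTOM+ Sncg cells at P30, a group of 2 cells.

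Few cortical cells held the early genes. At P15, 10 of 390 cells had an Lhx6 count, 3 of them at least 10 counts, 2 cells had an Nkx2-1 count and 6 had a Sox6 count. The highest Lhx6 values, 596 and 573 CPM, were in 2 tdTOM- cells with the label inconclusive. The second of these cells also held Nkx2-1 at 237 CPM, Sox6 at 130 CPM and Maf at 826 CPM, with Satb1 at 0 CPM. At P30, 4 of 581 cells had an Lhx6 count. The 1 tdTOM+ cell labelled Lamp5 Lhx6 had 92 Lhx6 counts (272 CPM), with Satb1 at 201 CPM and Maf at 391 CPM. The label names Lhx6, so its level there is no finding. The other 3 cells, all inconclusive, had 9, 1 and 1 counts. Nkx2-1 and Lhx6 were thus found together in 2 of 390 P15 cells, in 1 of them with 1 count each, and neither cell had a named subtype.

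Dock5+NGCs and Lsp1+NGCs were compared within tdTOM+ cells. No member was past 2-fold at P15 or P30, beside 19.3% of 8910 genes at P15 (9.66% higher in Dock5 and 9.63% in Lsp1 cells) and 19.4% of 10184 genes at P30 (10.7% and 8.65%). Only 2 members, Satb1 and Maf, reached 10 CPM at each age and could be called. At P15, the 36 Dock5+NGCs had 230 CPM of Maf and the 33 Lsp1+NGCs 432 CPM (418.5 to 444.8), with a log2 fold of -0.88. At P30, the 76 Dock5+NGCs had 177 CPM and the 35 Lsp1+NGCs 312 CPM (301.3 to 323.5), with a log2 fold of -0.78. Single Maf values overlapped at both ages, with medians of 203 and 408 CPM at P15 and 88.9 and 225 CPM at P30. Maf was lower in Dock5+NGCs at both ages, and the log2 fold was -1.60 in plate rows 1 to 20 and -0.14 in rows 21 to 40 at P15. Satb1 was at 21.3 and 8.67 CPM at P15, where the same share of thinned cells (19.4%) held it and 1 Dock5+ cell held 50.2% of its counts. At P30 it was at 13.9 and 7.32 CPM, in 9.09% and 17.6% of thinned cells, so the level and the share pointed opposite ways.

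Lsp1 cells were also compared between sorts, since both tdTOM+ and tdTOM- cells carried this label. No member was past 2-fold, beside 23.7% of 8809 genes at P15 (13.4% higher in tdTOM+ and 10.3% in tdTOM- cells) and 30.4% of 10140 genes at P30 (17.1% and 13.3%). Only 1 member, Maf, reached 10 CPM at each age, so the other members could not be called. At P15, Maf was at 432 CPM in 33 tdTOM+ cells and 377 CPM (360.2 to 393.6) in 20 tdTOM- cells, and Satb1 at 8.67 and 3.81 CPM. At P30, Maf was at 312 and 362 CPM, and Satb1 at 7.32 CPM in 35 tdTOM+ cells against 2 counts (0.279 CPM) in 28 tdTOM- cells. One tdTOM+ cell held 77.8% of these Satb1 counts, and the log2 fold of 0.75 was 0.20 without the largest cell of each sort. Nkx2-1 at P15 and Lhx6 at both ages had 0 counts in both sorts.

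The patch-seq cells carried the same 2 subtype labels. Per the methods, a classifier trained on expression in the labelled P15, P30 and adult cells assigned them. The labels were therefore not independent of those of the sorted cells, and members may have taken part in them. The classifier separated Dock5 from Lsp1 only, so no patched cell could be labelled Lamp5 Lhx6. The paper finds the subtype that likely matches that label mainly in deep layers. Per the methods, cells were patched in upper and deep layers, unlike the sorted cells. Whether any patched cell was of that subtype was not tested. Of the 4 members that reached 10 CPM here, 3 (Lhx6, Sox6 and Satb1) were past 2-fold and higher in 27 Lsp1 cells than in 20 Dock5 cells. Beside them, 18.3% of 9966 genes were past 2-fold in either direction, 10.6% higher in Lsp1 and 7.63% higher in Dock5 cells. Without the cell with the largest count of each gene, 0 members were past 2-fold. The deepest Lsp1 cell had 15968484 counts, 30.0% of its group's total, and held 85.4% of the Satb1, 69.6% of the Sox6 and 51.8% of the Lhx6 counts of Lsp1 cells.

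Lhx6 had 0 counts in the 20 Dock5 cells, which allows up to 0.367 CPM, and was at 10.8 CPM (9.94 to 11.7) in Lsp1 cells, from 5 of 27 cells with 7.02, 13.8, 18.7, 22.6 and 229 CPM. Sox6 was at 0.122 CPM (1 count) and 11.2 CPM, from 5 Lsp1 cells with 11.2 to 26.0 CPM. Satb1 was at 15.6 CPM (13.0 to 18.5) in Dock5 and 81.1 CPM (78.7 to 83.6) in Lsp1 cells, a log2 fold of -1.83, but in 35.3% and 44.0% of thinned cells. Without the deepest Lsp1 cell the Satb1 log2 fold was -0.08, and 0 members were past 2-fold. Maf was at 128 CPM (120.2 to 135.8) and 61.5 CPM (59.4 to 63.7), a log2 fold of 0.95, opposite in sign to that in the sorted cells, with overlapping single values whose medians were 74.4 and 57.5 CPM. Nkx2-1 (2.10 CPM) and Lhx8 (12.0 CPM) were found in 1 patched Lsp1 cell each, the same cell, which also held Lhx6 and Sox6.

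Sst and Pvalb are the defining genes of the main cortical MGE classes. Counts of Sst were found in 20 of 27 Lsp1 and 14 of 20 Dock5 patched cells, and counts of Pvalb in 16 and 10. Single Dock5 cells reached 368 CPM of Sst and 175 CPM of Pvalb. All 5 patched cells with Lhx6 held counts of both genes. Their Sst levels were between 267 and 1474 CPM and their Pvalb levels between 88.0 and 368 CPM, whereas the median over the 27 Lsp1 cells was 4.51 CPM for Sst and 1.77 CPM for Pvalb. The same 5 cells had Mbp, a myelin gene, at 214 to 4664 CPM and Slc17a7, the vesicular glutamate transporter of cortical excitatory neurons, at 3.94 to 169.6 CPM, with Lsp1 medians of 145 and 1.10 CPM. Transcripts of other cells were present in these libraries. Summed over the whole groups, the oligodendrocyte list (Olig1, Olig2, Pdgfra and Mbp, all 4 present) was at 451 CPM in Dock5 and 1837 CPM in Lsp1 cells, the red-blood list at 1234 and 1834 CPM, the glutamatergic list at 23.6 and 244 CPM and the immune list at 149 and 330 CPM. These sums lean on single deep cells, since 1 Lsp1 cell with 14.3% of its group's counts had the haemoglobin gene Hbb-bs at 5992 CPM. Medians over single cells lay closer, at 103 CPM (Dock5) and 145 CPM (Lsp1) for Mbp. For Hbb-bs they were 220 and 211 CPM. Mitochondrial genes took 3.34% of the summed counts of Dock5 and 7.51% of those of Lsp1 cells. The part of these transcripts in the Lhx6, Sox6 and Satb1 values was not tested.

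**Figure D5:**
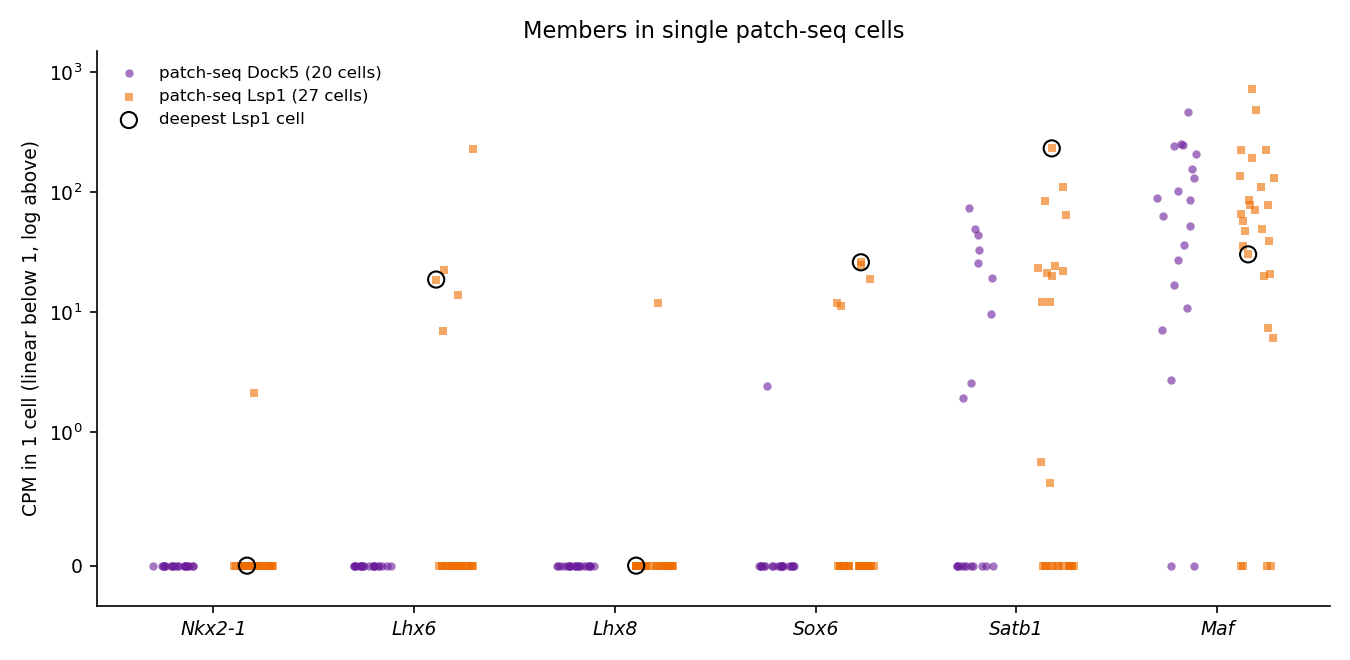
CPM of each member in single patch-seq cells, linear below 1 and logarithmic above, 20 Dock5 cells as purple circles and 27 Lsp1 cells as orange squares, with the deepest Lsp1 cell ringed. Lhx6 lies above 0 in 5 Lsp1 cells and in no Dock5 cell, and the ringed cell is highest for Sox6 and Satb1.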

How the data were processed

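Single-cell RNA was measured in droplets, on C1 chips and in patched cells. Per the labels and methods, the deposited values are whole counts per gene and cell: the authors aligned C1 reads with STAR to mm10 (GRCm38), removed duplicates with UMI-tools and counted exonic reads by strand, and used Cell Ranger for droplets. They left out cells of low gene number or high mitochondrial share and cell clusters that were not GABAergic. The methods give a number of recovered cells that is lower than the deposited barcodes for the CGE and higher for the POA; the markers given in the report bear on those labels. The steps by which patch-seq reads became counts are given only as those of the postnatal cells. Of the value columns, 0 were not used.

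Every cell took its group from its labels. Cells are not replicates and their animals are not named, so counts were summed per group; each CPM has its exact 95% Poisson interval, and shares have exact Clopper-Pearson intervals. For a count of 0, the limit was 3 counts of the total. Depth set this precision: cells held 2515 to 65782 counts in droplets, 18412 to 991458 on C1 chips and 33826 to 15968484 in patch-seq. Cells were thinned with a fixed seed to 3200 counts (droplets), 169500 (E14.5 C1) or the depth at percentile 10 of the comparison, and shallower cells were left out (3532 of 4115 CGE, 405 of 418 tdTOM+/GFP+ and 288 of 352 FlashTag+ cells stayed). Classes with as many counts of both lists (22 POA and 43 CGE cells) were left out. No doublet caller was run; the top 5% of droplet cells by counts were left out in an alternative.

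The named genes were the 6 members, the 3 genes most like each and the companion genes with at least 10 CPM. Some genes that this rule names are not reported here. Likeness was Pearson's r over genes found in at least 5% (droplet) or 10% (C1) of cells, on log2(CPM + 100) or log2(CPM + 10). The members, lists and comparisons were chosen with earlier results of these data known. Alternatives were other added values (1 or 100 CPM), no minimum, mean CPM of single cells, thinned sums, mitochondrial genes left out, the largest cell left out, plate rows, deeper cells, other groupings and other bins.

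Tools were pandas 2.3.3, scipy 1.17.1 and numpy 2.4.6 under Python 3.11.15, with figures by matplotlib 3.10.9. Simulated counts for NGCs and non-NGCs at P30 (17465 genes) were used as a test: 93 of 94 changed by 1 log2 unit and 103 of 106 changed by 2 came back within 0.1 log2. For post-mitotic-like POA and CGE cells (16891 genes) these were 89 of 99 and 93 of 101. Recovery in the other comparisons, patch-seq among them, was not tested. Only genes above a cutoff on their mean level were changed, so recovery at lower levels, such as that of Satb1 at P30, was not tested. Group sums were drawn with Poisson error only, without variation between cells. Recovery where a single cell holds a large part of the counts of a gene was not tested either. Promoter sequences were taken from RefSeq on GRCm38.p6; 5 of the 6 members had an entry.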

Additional observations from a re-analysis of the deposited data

Results flagged for a closer look

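Satb1 stood out because its difference between Dock5 and Lsp1 cells had one sign in sorted cells and the other in patched cells. The log2 fold of Dock5 over Lsp1 was 0.75 at P15 and 0.46 at P30, and -1.83 in patch-seq, where 1 Lsp1 cell held 85.4% of the counts and the value without it was -0.08. Over the alternatives it lay between 0 and 1.21 at P15, between -0.96 and 1.09 at P30 and between -2.31 and -0.08 in patch-seq. In sorted cells, 1 cell held 50.2% (Dock5) and 51.2% (Lsp1) of the counts at P15 and 35.7% and 77.8% at P30. The difference between these contrasts was not tested.

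Lhx6 stood out because its difference between tdTOM+/GFP+ and FlashTag+ cells at E14.5 depended on the class. The log2 fold was 3.97 in progenitor-like cells, which rests on 6 tdTOM+/GFP+ cells, and -0.26 in post-mitotic-like cells, where it was 0.15 without the cell with the largest count in each group. This difference was not tested either.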

How the results depend on the processing

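Of 12 log2 folds past 2-fold, 133 of 134 alternative values kept their sign. The exception was Lhx6 in tdTOM+/GFP+ against FlashTag+ cells, which turned to -0.26 in post-mitotic-like cells and to 0.15 in these without the largest cell of each gene. Of 36 folds not past 2-fold, 39 of 401 alternative values changed sign or became 0. The number of members past 2-fold moved with the added value: with 100 CPM it went from 2 to 1 (POA against CGE, progenitor-like), from 4 to 0 (post-mitotic-like), from 3 to 0 (patch-seq) and from 1 to 0 for E14.5 C1 cells and for NGCs at P15 and P30, because 100 CPM exceed most of these levels. In E14.5 C1 cells it went from 1 to 2 with the mean CPM of single cells and in plate rows 21 to 40. In splits by class, chosen after seeing the data, it went to 4 in post-mitotic-like cells (3 without the largest cell of each gene) and to 5 in progenitor-like cells. For NGCs at P30 it went from 1 to 0 with the mean CPM and between whole sorts. For Dock5 against Lsp1 it went from 0 to 1 at P15 with 1 CPM added or thinned sums and to 2 in plate rows 1 to 20, and from 0 to 1 at P30 in rows 1 to 20 or in cells with at least 200000 counts. In patch-seq it went from 3 to 1 with the mean CPM or thinned sums and to 0 without the cell with the largest count or, chosen after seeing the data, without the deepest Lsp1 cell. For Lsp1 cells between sorts at P30 it went from 0 to 1 with the mean CPM and in rows 1 to 20. Along maturation it went from 2 to 1 with 3 bins, and cells with both Nkx2-1 and Lhx6 from 165 to 415 without thinning. Beyond the added value and the smaller cell groups, the cause was not tested. The share and the level had the same direction in 39 of 48 member comparisons, 41 without thinning. No paired analysis was possible because the labels do not tie cells to animals and no test was run. Intervals cover counting error only.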
